A study of Mus musculus with 28 samples.

Results

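The genes described here mark the mural cells of blood vessels, the cells that wrap the endothelial tube. The set was chosen by symbol from textbook marker lists and holds 9 of the 23038 genes in the deposited tables. Smooth muscle is represented by 5 genes, *Acta2*, *Myh11*, *Tagln*, *Myl9* and *Cnn1*, and pericytes by 4 genes, *Pdgfrb*, *Rgs5*, *Kcnj8* and *Abcc9*. All 9 had counts in every library.

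Bulk RNA-seq was read from 28 libraries of dissected mouse brain, made with polyA selection. The *Nova1* hu/hu mice carry the I197V substitution in NOVA1, a neuronal RNA-binding protein, placed in the endogenous gene by CRISPR/Cas9 together with silent changes used for genotyping. They were compared with *Nova1* wt/wt mice on the same background, C57BL/6J in the study's methods and BL6 in the labels. Midbrain was taken at E18.5 from 6 hu/hu and 6 wt/wt mice, and midbrain and cortex were taken at P21 from 4 mice of each genotype per region. The edit is in every cell of the mouse and is not restricted to a cell type. Gene-level counts do not show the edited codon, so the genotype labels could not be checked here.

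Arteries and arterioles are ringed by smooth muscle cells, which contract through smooth muscle actin and myosin, while capillaries are covered by pericytes. Endothelial PDGF-B draws both cell types along growing vessels through the receptor PDGFRB, and Notch and TGF-beta signals between the endothelium and the vessel wall shape smooth muscle identity. Many contractile genes of smooth muscle are controlled by serum response factor (SRF) and its cofactors of the myocardin family through a DNA element called the CArG box. Pericytes and arteriolar smooth muscle of the brain also carry an ATP-sensitive potassium channel whose pore and regulatory subunits are encoded by *Kcnj8* and *Abcc9*.

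Because contractile genes are classically tied to CArG boxes, the promoters of the members were read for this element. The RefSeq promoter table (GRCm38.p6) held 6 of the 9 members; *Myh11*, *Tagln* and *Pdgfrb* were not listed. The 250 bases before the start were searched on both strands for CC, 6 bases of A or T, and GG, first exactly and then with up to 1 G or C among the 6 bases. *Myl9* had the exact element once and the relaxed form once, and *Acta2* had the relaxed form at 2 places. The 4 sites are shown with the element in capitals and 10 bases on each side, to let the reader see how close each is to the exact form.
*Acta2*, chr19:34255438-34255467, minus strand: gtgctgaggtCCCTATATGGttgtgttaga
*Acta2*, chr19:34255388-34255417, minus strand: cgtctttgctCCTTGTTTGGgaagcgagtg
*Myl9*, chr2:156775293-156775322, plus strand: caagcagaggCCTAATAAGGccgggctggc
*Myl9*, chr2:156775355-156775384, plus strand: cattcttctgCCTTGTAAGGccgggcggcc
The elements began 84 and 34 bases before the listed start of *Acta2*, and 161 and 99 bases before that of *Myl9*. GENCODE vM21 places both *Acta2* sites in an annotated exon of *Acta2*, and neither *Myl9* site in a *Myl9* exon. The RefSeq span of *Acta2* also reaches past both sites, to 34255585. Among all 32851 promoters in the table, 1.47% held the exact element, 8.59% held it with up to 1 G or C, and 0.67% held at least 2 such matches. The windows of *Cnn1*, *Rgs5*, *Kcnj8* and *Abcc9* held no match.

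Total counts per library ranged from 18550922 to 45134998. The E18.5 group medians, 21579191 in hu/hu and 23280922 in wt/wt, lay under the shallowest P21 library at 25256326, but the deepest E18.5 library, hu/hu replicate 6, held 35047494. The tissue markers matched the region labels, since all 5 midbrain markers were higher in midbrain and all 5 cortex markers were higher in cortex at P21. The summed level of the choroid plexus genes varied widely within groups, from 44.1 to 3667 TPM among the 6 E18.5 hu/hu libraries and from 12.2 to 3043 TPM among the 8 of P21 midbrain. TPM is the share of a library's transcripts that a gene takes, corrected for exon length, so that levels can be compared between genes. Fold changes come from edgeR's quasi-likelihood test on the counts, and a gene was called when its p was under 0.05 and its Benjamini-Hochberg adjusted p was under 0.1 over all genes tested. In bulk tissue, a change in the number of mural cells and a change in RNA per cell cannot be told apart.

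**Figure D1:**
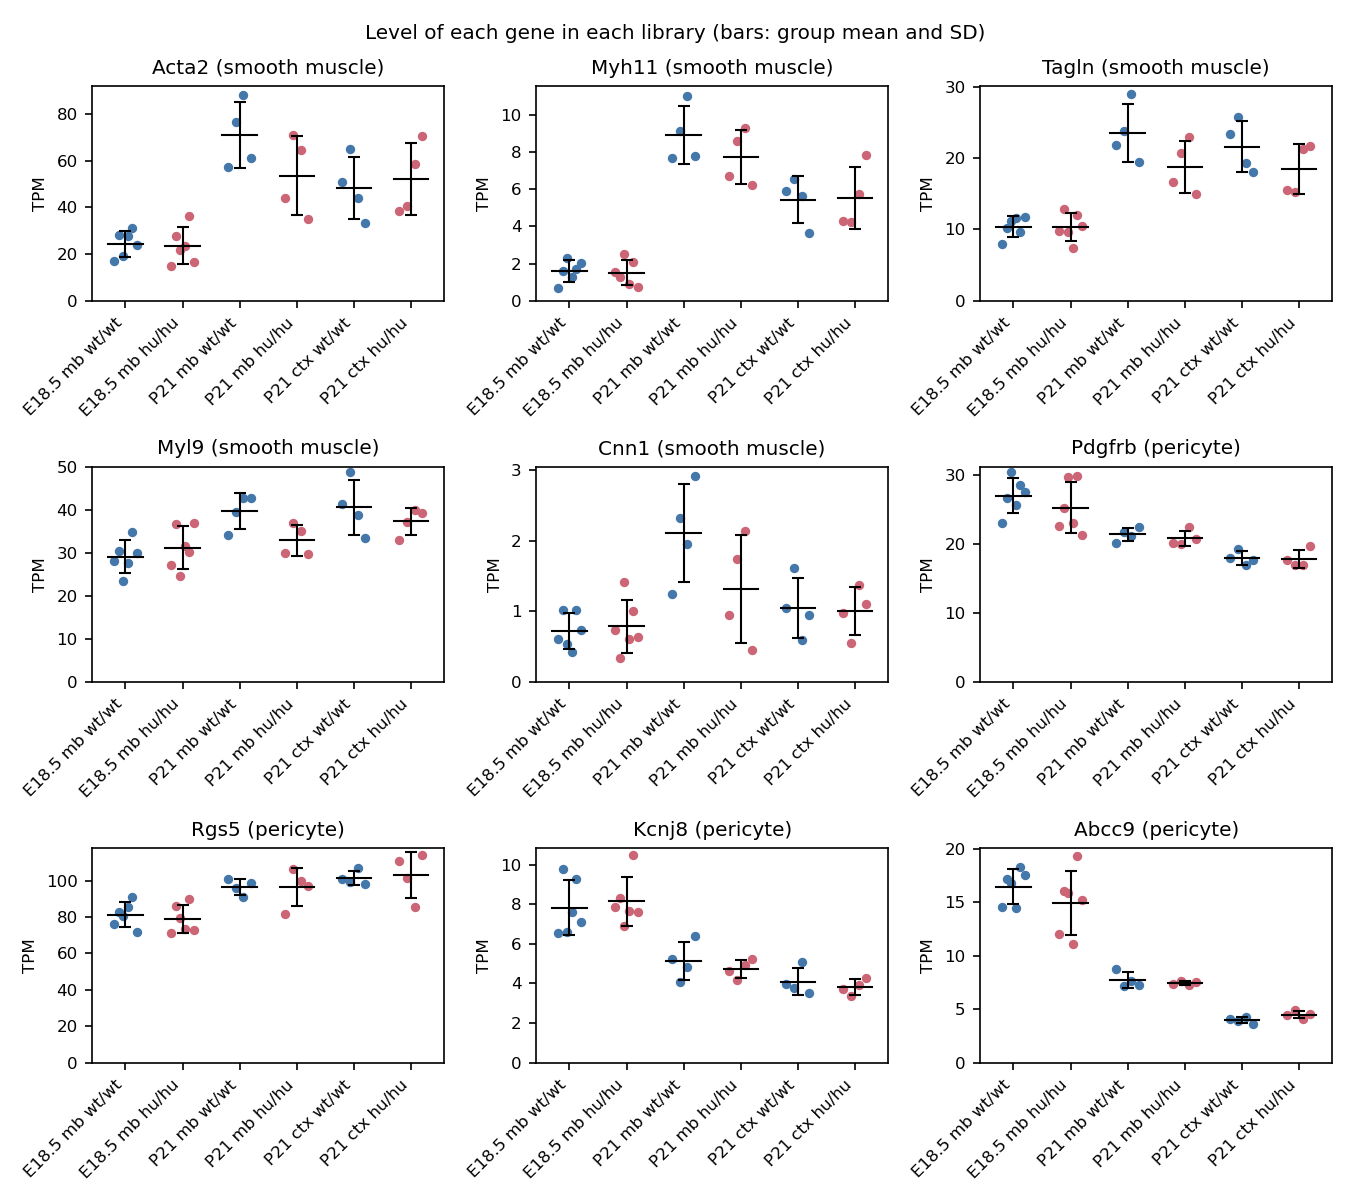
Level of each of the 9 genes in TPM (vertical axis, from 0) in every library, by age, region and genotype (mb, midbrain; ctx, cortex). Points are libraries, lines are group means and bars are SDs, with 6 libraries per group at E18.5 and 4 at P21; *Myh11* rose from between 0.65 and 2.51 TPM at E18.5 to between 6.26 and 11.1 TPM in P21 midbrain.

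The first question was how the mural genes differed between the E18.5 and the P21 midbrain. All 5 smooth muscle genes were higher at P21, whereas the pericyte genes split, with 1 higher, 2 lower and 1 not called. Beside these counts, 42.6% of the 16100 genes tested were called higher at P21 and 43.2% were called higher at E18.5, so a call alone says little and the sizes matter. The share of all genes whose groups did not overlap was not counted, so a lack of overlap below only describes the gene named. The median log2 fold change over the 5 smooth muscle genes was 1.38 and over the 4 pericyte genes it was -0.29, against a median of -0.01 over all genes tested and a median size of 0.62. Age and any difference in dissection, preparation or sequencing between the E18.5 and P21 libraries cannot be told apart.

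*Myh11*, the smooth muscle myosin heavy chain, showed the largest change of the 9. Its level at E18.5 was 0.65 TPM at the lowest, 1.58 at the median and 2.51 at the highest of 12 libraries. In P21 midbrain it was 6.26, 8.20 and 11.1 TPM over 8 libraries. Every P21 library stood above every E18.5 library. The fitted log2 fold change was 2.63 ± 0.167 (SE, edgeR adjusted p = 7.79e-14), and 4.71% of the genes tested had a larger change in either direction.

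*Acta2* encodes smooth muscle alpha-actin, the most abundant smooth muscle transcript at P21. Its level ran from 14.6 TPM through a median of 23.7 to 36.4 TPM at E18.5, and from 34.9 through 63.0 to 88.4 TPM at P21. The ranges touched only through the lowest P21 library, hu/hu replicate 4, which lay just under the highest E18.5 library. The log2 fold change was 1.58 ± 0.151 (SE, edgeR adjusted p = 3.55e-10). Other actin genes are close to *Acta2* in sequence. The *Acta2* counts were whole numbers in all 28 libraries, and how reads that match several actin genes were assigned was not tested.

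*Tagln* encodes transgelin, an actin-binding protein of smooth muscle. It lay between 7.38 and 12.8 TPM at E18.5 (median 10.3) and between 15.0 and 29.1 TPM at P21 (median 21.2), with no overlap, and its log2 fold change was 1.23 ± 0.103 (SE, edgeR adjusted p = 2.62e-11). *Tagln* shares 1241 exonic bases with the antisense gene *Gm48529* and 108 with *Pcsk7* on the opposite strand. No source says whether strand was used in counting, and without it reads of these genes cannot be told apart there.

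*Cnn1* and *Myl9* rose as well, with ranges that overlapped. *Cnn1*, calponin 1, was the scarcest member, with 4 to 72 counts per library, and went from 0.33 to 1.41 TPM at E18.5 (median 0.69) to 0.45 to 2.92 TPM at P21 (median 1.84). Its log2 fold change was 1.38 ± 0.272 (SE, edgeR adjusted p = 4.97e-05). *Myl9*, the regulatory light chain of smooth muscle myosin, was the most abundant smooth muscle gene at E18.5. It moved from a median of 30.03 TPM (23.5 to 37.0) to a median of 36.0 TPM (29.7 to 42.9), a log2 fold change of 0.47 ± 0.0904 (SE, edgeR adjusted p = 3.53e-05). *Myl9* therefore passed from 1.34 ± 0.396 times the *Acta2* level at E18.5 to 0.61 ± 0.124 times at P21 (SD, n = 12 and 8), and the share of *Acta2* in the smooth muscle sum went from 35.4% ± 5.52 to 47.4% ± 3.70.

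Among the pericyte genes, the channel subunits fell. *Abcc9*, which encodes the regulatory subunit SUR2, was at 11.1 to 19.3 TPM at E18.5 (median 15.96) and at 7.14 to 8.75 TPM in P21 midbrain (median 7.42). *Kcnj8*, which encodes the pore subunit Kir6.1, was at 6.57 to 10.5 TPM at E18.5 (median 7.65) and at 4.08 to 6.41 TPM at P21 (median 4.87). In TPM, every P21 library was below every E18.5 library for both genes. With the scaling used in the fit (TMM-scaled CPM), this held for *Abcc9* but not for *Kcnj8*. On that scale *Kcnj8* in P21 wt/wt replicate 4, at 4.71, lay above several E18.5 libraries, the lowest being wt/wt replicate 3 at 4.09. The log2 fold changes were -0.85 ± 0.0715 for *Abcc9* (SE, edgeR adjusted p = 3.02e-11) and -0.49 ± 0.0997 for *Kcnj8* (SE, edgeR adjusted p = 7.96e-05). The genes are neighbours on chromosome 6, in the order *Kcnj8* (142564837 to 142571614) and *Abcc9* (142587862 to 142702766) on the minus strand of GRCm38, with 16248 bases and 0 other RefSeq genes between them. *Abcc9* shares 158 exonic bases with the antisense gene *5330439B14Rik*.

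*Rgs5*, a regulator of G-protein signalling that is the most abundant of the 9 transcripts, moved the other way. It was at 71.0 to 91.0 TPM at E18.5 (median 79.9) and at 81.7 to 106 TPM at P21 (median 97.8), with a log2 fold change of 0.48 ± 0.0516 (SE, edgeR adjusted p = 3.62e-09). The ranges overlapped through P21 hu/hu replicate 1. *Pdgfrb*, the PDGF-B receptor, was at 21.3 to 30.5 TPM at E18.5 and at 20.03 to 22.4 TPM at P21, and was not called (log2 fold change -0.10 ± 0.0539, SE, 95% interval -0.21 to 0.01, edgeR). Its call depended on single libraries, since *Pdgfrb* was called lower at P21 without E18.5 hu/hu replicate 1 (adjusted p = 0.055), E18.5 hu/hu replicate 6 (0.028), E18.5 wt/wt replicate 1 (0.046) or P21 hu/hu replicate 3 (0.042), in the same edgeR test.

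The scale matters for the smaller changes. On the TPM scale the median of 14672 genes above 1 TPM at both ages was shifted by -0.21 (log2 ratio of P21 to E18.5) relative to the scaling used in the fit. Every member kept its direction on both scales, but the smaller values differed. The log2 ratio of mean TPM was 0.27 for *Myl9*, 0.27 for *Rgs5* and -0.31 for *Pdgfrb*.

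**Figure D2:**
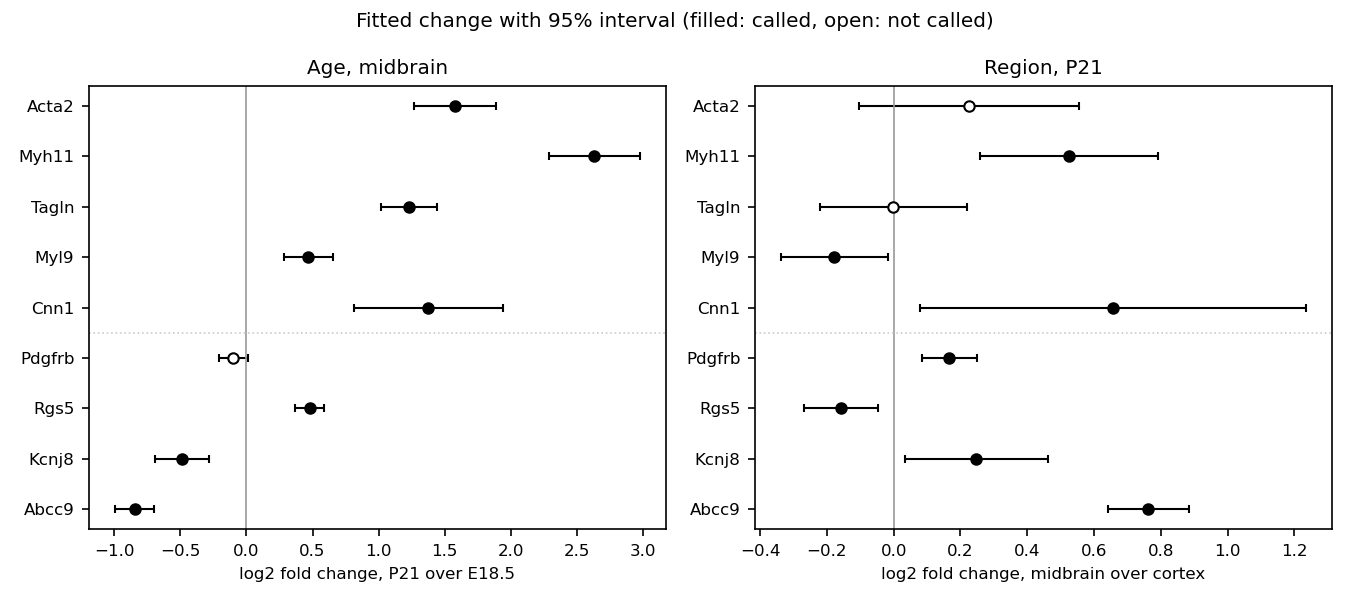
Fitted log2 fold change (horizontal axes) of each gene with its 95% interval, for P21 over E18.5 in midbrain on the left (12 and 8 libraries) and for midbrain over cortex at P21 on the right (8 and 8). Filled points were called and open points were not; the 5 smooth muscle genes lie right of 0 on the left panel, from 0.47 for *Myl9* to 2.63 for *Myh11*, and the pericyte genes lie on both sides.

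Summing the TPM of each class gives the balance between them. The smooth muscle sum rose from 66.8 ± 9.63 TPM at E18.5 (SD, n = 12) to 129.9 ± 27.8 TPM in P21 midbrain (SD, n = 8), and the lowest P21 library, at 86.2, was above the highest E18.5 library, at 81.7. The pericyte sum was 129.8 ± 11.9 TPM at E18.5 and 130.0 ± 7.83 TPM at P21, a ratio of 1.0. That level sum rests on *Rgs5*, whose share of it went from 61.7% ± 1.92 to 74.1% ± 1.51. Without *Rgs5* the log2 ratio of the pericyte sum was -0.57. The smooth muscle sum was 0.51 ± 0.0515 of the pericyte sum at E18.5, 1.0 ± 0.216 in P21 midbrain and 0.91 ± 0.191 in P21 cortex.

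**Figure D3:**
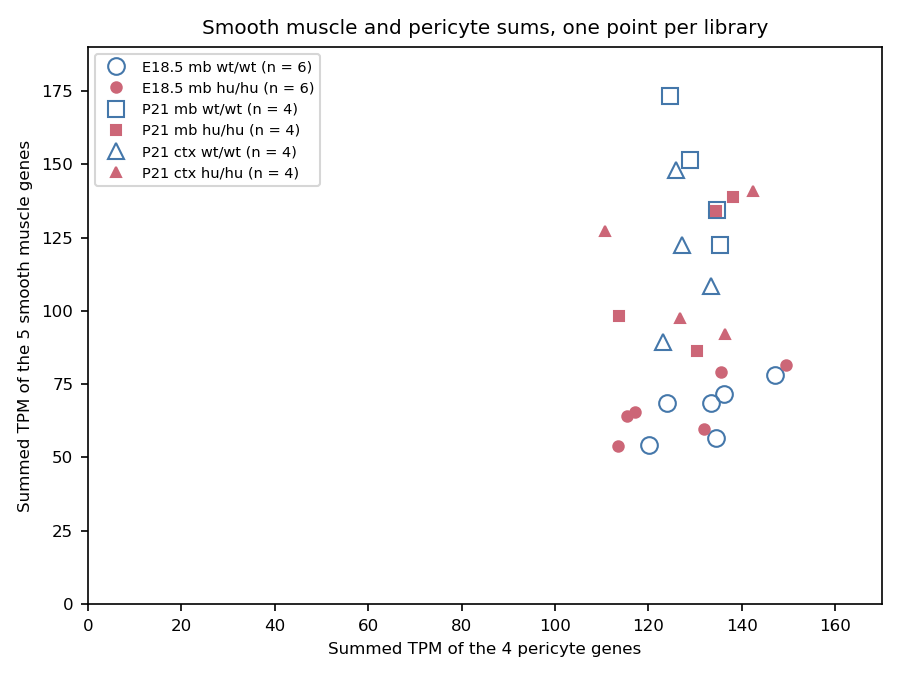
Summed TPM of the 5 smooth muscle genes (vertical axis) against that of the 4 pericyte genes (horizontal axis), one point per library, with open blue symbols for wt/wt and filled red symbols for hu/hu. The 12 E18.5 libraries (circles) lie between 53.9 and 81.7 on the vertical axis, under all 16 P21 libraries, while on the horizontal axis the 3 sets share one range.

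Markers of other cell types moved with age too, and their part in the mural changes was not tested. Of 12 endothelial genes, 6 were higher and 3 lower at P21, and their summed level went from 331 to 463 TPM at E18.5 (lowest and highest library) to 556 to 614 TPM. The pericyte sum was therefore 0.33 ± 0.0155 of the endothelial sum at E18.5 and 0.22 ± 0.0111 at P21, while the smooth muscle sum was 0.17 ± 0.0171 and 0.22 ± 0.0413 of it (SD). The endothelial genes did not move together. *Slco1a4* (4.14 to 57.0 TPM on average) and *Ly6c1* (11.8 to 81.0) had the largest fold rises. *Kdr* (41.5 to 15.0) and *Cdh5* (31.5 to 14.2) had the largest falls. Both ratios therefore depend on which endothelial genes are summed. All 6 microglial genes were higher at P21, and of 8 fibroblast genes, which mark the leptomeninges and adventitia, 7 were lower and 1 higher. Of 8 skeletal muscle genes 5 were tested, with 4 lower and 1 higher, and the skeletal muscle sum fell from 17.9 ± 2.39 to 11.6 ± 2.30 TPM, opposite in direction to the smooth muscle sum. Of 5 choroid plexus genes 1 was higher and 2 were lower, and of 3 erythroid genes 1 was higher.

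The wider smooth muscle programme was read from 13 tested genes for other contractile proteins and for SRF and its cofactors. At P21, 8 were higher and 2 lower, with a median log2 fold change of 0.34. The largest rises were in *Synpo2*, an actin-bundling protein (log2 fold change 2.64 ± 0.0813, SE), and *Lmod1*, the smooth muscle leiomodin (2.22 ± 0.133). The falls were in the actin-binding caldesmon gene *Cald1* (-0.52 ± 0.0511) and in *Mkl1*, a cofactor of SRF (-0.15 ± 0.0423). *Srf* itself was not called (0.10), and *Myocd*, the gene for myocardin, had too few counts to be tested. Several of these genes, such as *Srf* and *Cald1*, are also used by cells other than smooth muscle. *Synpo2* did not follow the smooth muscle genes between regions, at 15.3 ± 2.28 TPM in P21 midbrain and 1.30 ± 0.134 TPM in P21 cortex (SD). The smooth muscle sum was 129.9 ± 27.8 and 115.8 ± 22.3 TPM there. Which cells the rise of *Synpo2* came from was not tested.

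Of 14 other mural cell genes, 5 were higher and 7 lower at P21, with a median of -0.36. *Heyl*, a target of Notch signalling, rose by 1.85 ± 0.0647 and *Atp13a5*, an ATPase of brain pericytes, rose by 0.56 ± 0.0741 (log2 fold change, SE). The transcription factor genes *Ebf1* (-1.86 ± 0.0630) and *Tbx18* (-1.47 ± 0.128) fell most. Of 15 genes for signals between endothelium and mural cells, 7 were higher and 6 lower, with a median of -0.01. *S1pr1*, a sphingosine 1-phosphate receptor (1.95 ± 0.0566), and the ligand gene *Pdgfa* (0.59 ± 0.0581) rose most, and the receptor gene *Tgfbr1* (-0.94 ± 0.0535) and the Notch ligand gene *Dll4* (-0.73 ± 0.106) fell most. *Pdgfb*, the ligand of *Pdgfrb*, was not called (-0.06).

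The second question was whether midbrain and cortex differed at P21. Of the smooth muscle genes 2 were higher in midbrain, 1 was higher in cortex and 2 were not called, and of the pericyte genes 3 were higher in midbrain and 1 in cortex. Beside them, 38.1% of the 16129 genes tested were called higher in midbrain and 37.9% were called higher in cortex. As for age, the share of all genes whose groups did not overlap was not counted. The median of all genes on the TPM scale lay 0.07 above that of the fit.

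*Abcc9* differed most clearly. It was at 7.14 to 8.75 TPM in the 8 midbrain libraries (median 7.42) and at 3.58 to 4.92 TPM in the 8 cortex libraries (median 4.19), with no overlap. The log2 fold change of midbrain over cortex was 0.76 ± 0.0586 (SE, edgeR adjusted p = 2.38e-11), and it was called under every alternative tried. Together with the fall from E18.5, this placed the 3 tissues in the order fetal midbrain, P21 midbrain, P21 cortex, at 15.7, 7.57 and 4.23 TPM on average. E18.5 midbrain and P21 cortex were not tested against each other.

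Its partner gene *Kcnj8* differed less, at 4.94 ± 0.733 TPM in midbrain and 3.95 ± 0.535 TPM in cortex (SD, n = 8 each). Its log2 fold change was 0.25 ± 0.103 (SE, edgeR adjusted p = 0.035). The *Kcnj8* call was lost without cortex hu/hu replicate 2 (0.068), cortex wt/wt replicate 4 (0.076) or midbrain wt/wt replicate 4 (0.10), all adjusted p values of the same edgeR test. The log2 fold change then stayed at 0.19 to 0.22. With wt/wt or hu/hu libraries alone it was 0.26 and 0.23, also not called. Where an adjusted p under 0.1 goes with a lost call, here and for the genes that follow, the unadjusted p was at or above 0.05. *Pdgfrb* was at 20.03 to 22.4 TPM in midbrain and at 16.9 to 19.6 TPM in cortex, without overlap on the TPM scale. With the scaling used in the fit (TMM-scaled CPM) the regions overlapped. On that scale the highest cortex library, hu/hu replicate 4, was at 37.3, and the lowest midbrain library, wt/wt replicate 1, was at 36.6. *Pdgfrb* was higher in midbrain by 0.17 ± 0.0398 on the log2 scale (SE, edgeR adjusted p = 0.00063). *Rgs5* was higher in cortex, at 102.2 ± 8.76 TPM against 96.4 ± 7.40 TPM (SD), with a log2 fold change of -0.16 ± 0.0530 (SE, edgeR adjusted p = 0.0099). The *Rgs5* call was lost with hu/hu libraries alone (log2 fold change -0.18).

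In smooth muscle, *Myh11* was the firmest difference between the regions. Its level was 6.26 to 11.1 TPM in midbrain (median 8.20) and 3.62 to 7.85 TPM in cortex (median 5.70), so the ranges overlapped. The log2 fold change was 0.52 ± 0.129 (SE, edgeR adjusted p = 0.00081). *Acta2*, at 62.3 ± 17.2 TPM in midbrain and 50.2 ± 13.5 TPM in cortex (SD), was not called (0.23, 95% interval -0.10 to 0.56), nor was *Tagln* (-0.0017, interval -0.22 to 0.22, and 0.08 as a log2 ratio of mean TPM). *Acta2* was called in wt/wt libraries alone (log2 fold change 0.48, edgeR adjusted p = 0.020), and without cortex hu/hu replicate 4 (0.32, adjusted p = 0.061) or midbrain hu/hu replicate 4 (0.32, adjusted p = 0.054).

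*Cnn1* was higher in midbrain by 0.66 ± 0.279 and *Myl9* was higher in cortex, with -0.18 ± 0.0770 (log2 fold change, SE, edgeR adjusted p = 0.038 and 0.042). Neither call was firm. *Cnn1* lost it without any one of cortex hu/hu replicate 2, cortex wt/wt replicates 3 and 4, midbrain hu/hu replicates 2 and 3 and midbrain wt/wt replicate 4, where its log2 fold change was 0.53 to 0.61, and with hu/hu libraries alone (0.32). *Myl9* lost it without any one of cortex hu/hu replicates 3 and 4, cortex wt/wt replicate 2, midbrain hu/hu replicates 1 and 4 and midbrain wt/wt replicate 1, where it was -0.16 to -0.14, and with wt/wt libraries alone (-0.10).

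The ratio of the potassium channel subunits followed from these values. The level of *Kcnj8* was 0.52 ± 0.0910 of that of *Abcc9* at E18.5, 0.66 ± 0.104 in P21 midbrain and 0.94 ± 0.142 in P21 cortex (SD, n = 12, 8 and 8). The level of *Abcc9* relative to *Pdgfrb* was 0.60 ± 0.0668, 0.36 ± 0.0369 and 0.24 ± 0.0287 in the same order, and *Rgs5* stood at 3.08 ± 0.294, 4.58 ± 0.407 and 5.73 ± 0.477 times *Pdgfrb*. Each of these ratios kept one order over the 3 tissues, and no test was made of them.

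Of the 13 other contractile and regulator genes, 6 were higher in midbrain and 4 in cortex. *Synpo2* (3.48 ± 0.0950, log2 fold change and SE) and the smoothelin gene *Smtn* (0.78 ± 0.0675) were highest in midbrain relative to cortex, and *Mkl2* (-1.51 ± 0.0367) and *Srf* (-1.34 ± 0.0763), which neurons also express, lay furthest in the other direction. Of the 14 other mural genes, 6 were higher in midbrain and 0 in cortex, with the largest values for *Zic1* (2.0 ± 0.0433), a transcription factor also used by midbrain neurons, and *Heyl* (1.48 ± 0.0730). The signalling genes split evenly, with 6 of 15 on each side; the vessel-remodelling ligand gene *Angpt2* (0.64 ± 0.130) and the Notch ligand gene *Jag1* (0.57 ± 0.0760) were higher in midbrain, and *Pdgfb* (-1.16 ± 0.0807) and *Acvrl1*, a receptor of the TGF-beta family (-0.24 ± 0.0609), were higher in cortex. Of the endothelial genes 7 were higher in midbrain and 1 in cortex, of 8 fibroblast genes 4 and 0, of 6 microglial genes 0 and 6, and of 6 tested skeletal muscle genes 1 and 3. Of 5 choroid plexus genes 0 were higher in midbrain and 2 in cortex, and of 3 erythroid genes 1 and 0. *Acta1*, the skeletal muscle actin whose sequence is close to *Acta2*, was lower in midbrain (4.40 ± 1.49 TPM against 19.7 ± 2.95 TPM, SD). The part of these markers in the mural differences was not tested.

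The study's main contrast was *Nova1* hu/hu against wt/wt. No member was called at either age or in either region, and the background was 0% of genes called in each of the 3 tissues (midbrain at E18.5, then midbrain and cortex at P21). At an unadjusted p under 0.05 there were 201 of 15540, 426 of 15972 and 450 of 15767 genes (1.29%, 2.67% and 2.85%). The main fit, which has no block, thus passed fewer genes than the 0.05 share expected with no difference at all. With the replicate number as a block there were 813, 735 and 897 genes at that unadjusted p. DESeq2 called 0, 1 and 0 genes. With the replicate number as a block, edgeR called 0, 4 and 0 genes, and none of them was a member. The study itself reports *Gkn3*, not a member, as lower in hu/hu P21 midbrain, by edgeR at the same thresholds. The main fit here did not call it, and which step made the difference was not tested.

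In E18.5 midbrain the genotypes lay close together. The smooth muscle sum was 67.3 ± 10.9 TPM in hu/hu and 66.3 ± 9.17 TPM in wt/wt mice, and the pericyte sum was 127.1 ± 14.2 and 132.5 ± 9.57 TPM (SD, n = 6 each). The fitted log2 fold changes of hu/hu over wt/wt ran from -0.15 for *Abcc9* (95% interval -0.36 to 0.06) to 0.10 for *Myl9* (-0.14 to 0.35). *Cnn1*, with 4 to 18 counts per library, was not tested.

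In P21 midbrain the fitted value of each of the 5 smooth muscle genes was lower in hu/hu mice, without a call. *Acta2* was at 44.1, 71.0, 64.6 and 34.9 TPM in hu/hu replicates 1 to 4 and at 57.5, 76.6, 88.4 and 61.3 TPM in the wt/wt replicates of the same numbers. *Tagln* was at 16.6, 20.7, 23.0 and 15.0 TPM in hu/hu and at 21.8, 23.8, 29.1 and 19.4 TPM in wt/wt. The hu/hu library was the lower one at each of the 4 numbers for both genes, but the groups overlapped.

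The same held for the myosin genes. *Myh11* was at 6.73, 8.60, 9.31 and 6.26 TPM in hu/hu and at 7.67, 9.16, 11.1 and 7.80 TPM in wt/wt. *Myl9* was at 29.9, 36.9, 35.2 and 29.7 TPM in hu/hu and at 34.1, 39.4, 42.8 and 42.9 TPM in wt/wt. Both were lower in hu/hu at 4 of 4 numbers with overlapping groups. *Cnn1*, at 0.95, 1.73, 2.15 and 0.45 TPM against 1.25, 2.33, 1.95 and 2.92 TPM, was lower at 3 of 4. The share of all genes that were lower in hu/hu at 4 of 4 numbers was not counted. As described below, the smooth muscle genes also varied together among these libraries, so they do not count as separate evidence.

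The log2 fold changes, with 95% intervals, were -0.40 (-0.79 to 0.0011) for *Acta2*, -0.20 (-0.49 to 0.08) for *Myh11*, -0.32 (-0.62 to -0.01) for *Tagln*, -0.27 (-0.49 to -0.05) for *Myl9* and -0.70 (-1.50 to 0.10) for *Cnn1*. The edgeR adjusted p was 1.0 for each. With the replicate number as a block the intervals narrowed, to -0.60 to -0.25 for *Acta2*, -0.34 to -0.07 for *Myh11*, -0.49 to -0.15 for *Tagln*, -0.45 to -0.10 for *Myl9* and -1.46 to -0.03 for *Cnn1*. Over all genes tested these were still not called, with edgeR adjusted p values from 0.24 for *Acta2* to 1.0 for *Cnn1*. At an unadjusted p under 0.05 in the edgeR test there were 735 of 15972 genes with the block and 426 without it. Neither count exceeded the 0.05 share expected with no difference at all. Blocked intervals are given for this tissue only, and the pairing behind the block was read from these same data. In the other tissues and in the interactions no member was called with the block either. Single libraries moved the values of the fit without the block both ways. Without hu/hu replicate 4, *Acta2* was at -0.23 and *Cnn1* at -0.41, and without wt/wt replicate 3, *Myh11* was at -0.08 and *Tagln* at -0.20. In the other direction *Acta2* was at -0.57 without hu/hu replicate 2, and without hu/hu replicate 3 *Myh11* was at -0.31, *Tagln* at -0.43 and *Cnn1* at -1.01. The smooth muscle sum was 114.4 ± 26.1 TPM in hu/hu and 145.3 ± 22.1 TPM in wt/wt (SD, n = 4 each). The pericyte sum was 129.2 ± 10.8 and 130.9 ± 5.08 TPM, and no pericyte gene had a fitted log2 fold change beyond -0.12, the value for *Kcnj8*. Among 13 other contractile genes the median was -0.07, and the endothelial median was -0.02. The fibroblast median was -0.11 and the choroid plexus median was -0.24, with a choroid plexus sum of 12.2 to 2852 TPM in hu/hu and 44.8 to 3043 TPM in wt/wt libraries, and their part in the smooth muscle values was not tested.

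In P21 cortex the smooth muscle values did not lie to one side. *Acta2* was at 38.2, 40.5, 58.8 and 70.7 TPM in hu/hu and at 50.9, 65.2, 44.0 and 33.5 TPM in wt/wt, a log2 fold change of 0.11 (95% interval -0.30 to 0.51). The fitted values of the other members ran from -0.22 for *Tagln* (-0.51 to 0.06) to 0.18 for *Abcc9* (-0.01 to 0.37, edgeR adjusted p = 1.0). The genotype by region interaction of *Acta2* was -0.50 ± 0.308 and its genotype by age interaction was -0.32 ± 0.307 (log2, SE). Neither was called, and the background of both interactions was 0% of 16345 and of 16330 genes, with 373 and 303 genes at an unadjusted p under 0.05. A difference of the genotype effect between tissues was therefore not shown for any member. DESeq2 also called 0 genes in either interaction.

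**Figure D4:**
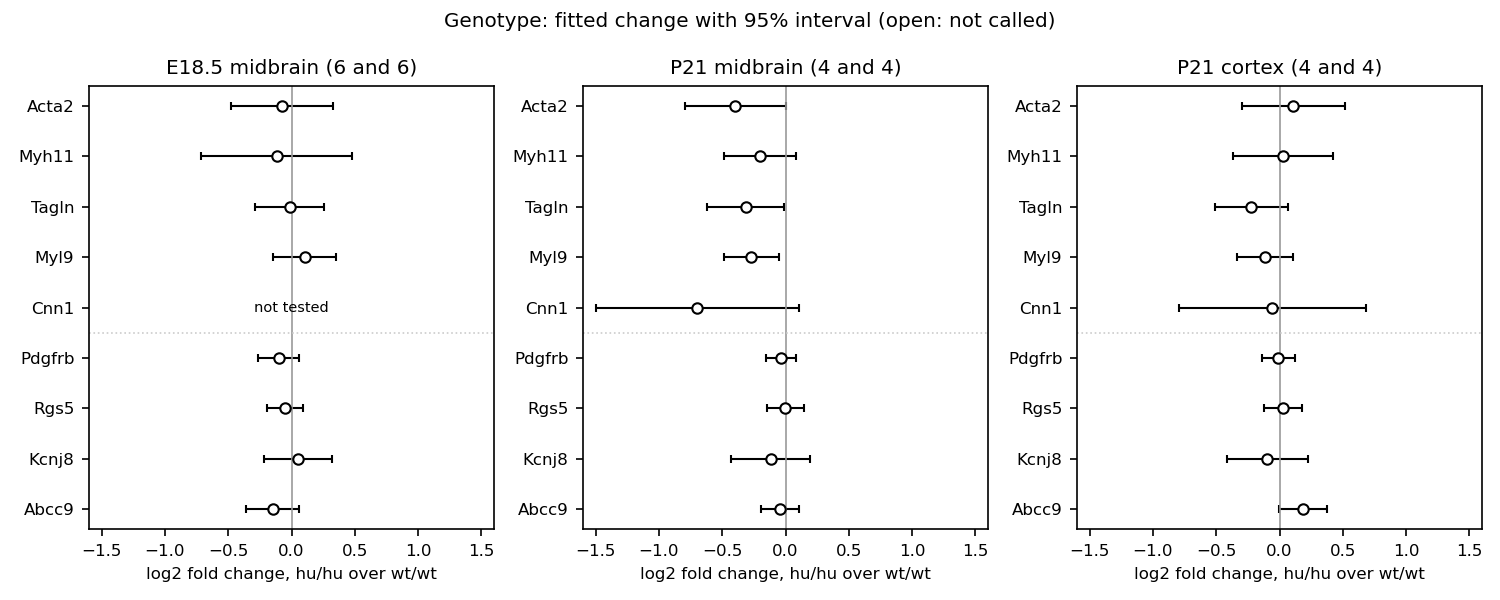
Fitted log2 fold change of hu/hu over wt/wt (horizontal axes) with its 95% interval, for each gene in midbrain at E18.5 and at P21 and in cortex at P21, with the number of hu/hu and wt/wt libraries above each panel. No gene was called, so all points are open; in P21 midbrain the 5 smooth muscle points lie left of 0, between -0.70 for *Cnn1* and -0.20 for *Myh11*.

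How the members varied among libraries of one group also differed by age. For this, each library's log2(TPM + 1) was taken as the deviation from the mean of its own age, region and genotype, and Pearson's r is given as a description; the points share library preparation, depth and, for equal numbers, a replicate. In P21 midbrain *Acta2* followed the mean of the other smooth muscle genes at r = 0.94, *Myh11* at 0.90, *Myl9* at 0.84, *Tagln* at 0.81 and *Cnn1* at 0.71 (8 libraries). In P21 cortex the values were 0.98, 0.85, 0.85, 0.98 and 0.64. At E18.5 they were lower, at 0.55, 0.42, -0.10, 0.39 and 0.23 (12 libraries), where *Myh11* and *Cnn1* rest on few counts.

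The relation between the classes ran the other way. The mean deviations of smooth muscle and pericyte genes correlated at r = 0.92 at E18.5, at -0.15 in P21 midbrain and at 0.24 in P21 cortex. Pericyte and endothelial deviations correlated at 0.88, 0.27 and 0.46. The microglial list followed both classes at E18.5 (0.85 with either). In P21 midbrain it followed smooth muscle (0.75) and not pericytes (-0.51), and the skeletal muscle list followed smooth muscle at 0.71; in P21 cortex these values with smooth muscle were 0.03 and -0.68.

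Outside the members, *Fbln1* (r = 0.75 over 28 libraries) and *Eln* (0.74), which encode the extracellular matrix proteins fibulin 1 and elastin, were nearest to the smooth muscle mean among 14316 genes compared, followed by *Nme4*, *Mrgpre*, *Gga2* and *Six5* (0.68 to 0.70). *Eln* reached 0.93 in P21 midbrain and *Fbln1* 0.89. Nearest to the pericyte mean were *Arhgap31* (0.83) and *Myh9*, a nonmuscle myosin heavy chain (0.80), followed by *Nfia*, *Whrn*, *Spata13* and *Rbms2* (0.76 to 0.79), mostly through the E18.5 libraries, where *Arhgap31* reached 0.93 against 0.39 in P21 midbrain. Over all genes compared, 5% lay above 0.46 for the smooth muscle mean and 5% above 0.59 for the pericyte mean.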

How the data were processed

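Bulk polyA RNA-seq of 28 libraries was used; cerebellum was not used here. Per the study's methods, the authors mapped paired-end reads to mm10 by OLego and obtained gene counts by Quantas, and the submitters' processing notes name edgeR. Each deposited table lists, per gene, the exon length, the expected count and the RPKM. The deposited RPKM values followed from the counts and lengths (largest relative difference 2.27e-13) and were not tested. Expected counts were rounded for the tests; TPM was computed from unrounded counts.

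Groups came from the labels. The comparisons were genotype in each tissue and age, age in midbrain and region at P21 with genotype as a covariate, and genotype effects between ages and regions as interactions, with edgeR 4.0.16 in R 4.3.3 (glmQLFit, glmQLFTest, TMM factors, filterByExpr), two-sided. DESeq2 1.42.0 was an alternative. Calls used the thresholds of the study, p under 0.05 and adjusted p under 0.1. The scripts were tested on simulated counts. Standard errors and intervals cover only the spread between libraries; the labels do not say what a replicate is beyond its number. The deviations of same-numbered hu/hu and wt/wt libraries correlated at 0.18 to 0.40 (E18.5), 0.20 to 0.24 (P21 midbrain) and 0.17 to 0.25 (P21 cortex). Those of different numbers correlated at -0.27 to 0.19, -0.25 to 0.15 and -0.17 to 0.10, so the ranges overlapped at E18.5 only. From these values, which come from the same data, the numbers were taken to pair genotypes.

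The members and all gene lists were chosen with earlier results of these data known. All members are named. Of the other contractile and regulator, other mural and signalling lists, the called genes with the 2 largest rises and 2 largest falls are named. This was done for age and region, and for age also with the endothelial list. The 6 genes nearest to each class mean are named too (mean TPM at least 1 in each tissue). The remaining lists are given as counts, medians or sums. Genes named outside this rule (*Srf*, *Myocd*, *Pdgfb* for age and *Acta1*) were chosen after their values were seen. Positions are from RefSeq GRCm38.p6, which is the build mm10.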

Additional observations from a re-analysis of the deposited data

How the results depend on the processing

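RLE factors, DESeq2, no filter, an adjusted p under 0.05, legacy=FALSE, the replicate block, single genotypes and each library left out in turn were tried. No direction reversed among the called values. Of the alternative values for single members, 1260 kept their side of the threshold, 20 lost it and 7 gained it, and those are given with the genes. For genotype in P21 midbrain the count of called genes was 0, against 1 with DESeq2 and 4 with the replicate block. The block changed no call of a member and no other genotype count. For region it moved the count over all genes from 12258 to 12200. Same-numbered midbrain and cortex libraries correlated at -0.20 to -0.10, and those of different numbers at -0.20 to 0.24, so the number does not pair regions. Blocking on it left the regional calls of the members as they were. Since the labels do not say which libraries share a mouse, this does not show how the calls would stand under a true pairing. For region, the smooth muscle genes called higher in midbrain numbered 2, and 1 with hu/hu libraries alone (1 to 3 with single libraries left out); those called lower numbered 1, and 0 with wt/wt alone (0 to 1); the pericyte gene called lower was lost with hu/hu alone (0). The log2 age ratio of the smooth muscle sum was 0.96 in TPM and 1.45 in TMM-scaled CPM. The CPM sum is not corrected for exon length, so by construction *Myh11* (7583 exonic bases) weighs more in it. These values therefore do not differ by scaling alone. The log2 age ratio of the pericyte sum was 0.00, against -0.57 without *Rgs5* and -0.39 as a mean of log2(TPM + 1). Its region ratio was 0.02, against 0.37 and 0.28. The cause was not tested, though by construction the last alternatives weigh *Rgs5* less. The comparison of ages itself was not blocked, since the ages come from different mice; its interaction with genotype was, with 0 genes called. Depth limits *Cnn1* most.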
